A study of Zea mays with 12 samples.

Results

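Of 39514 maize (Zea mays) genes, 16 were expressed in both tissues of one genotype and at or near 0 in both tissues of the other. Of these, 10 were present in Sdw3 and 6 in N18, which is 0.0405% of all genes. A gene was taken as present where the authors' FPKM (fragments scaled to transcript length and library size) was at least 1 in internode and ligular tissue alike of one genotype, and as missing from the other where it was under 0.2 in both. The genes were chosen by these FPKM values, so their levels are given as a description and no test was run on them. The description "detected in only one genotype" holds literally for 9 of the 16, which were listed at 0 in the other genotype in both tissues. The remaining 7 were above 0 there in at least 1 tissue, at no more than 0.103.

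The groups compared were plants labelled Sdw3, a maize mutant by the title of the study, and plants labelled N18, both at the V7 vegetative stage, with no treatment named. Tissue came from the elongating stem segment lying between leaves 7 and 8 (the developing internode), and from leaves 8 and 9 at the zone where blade and sheath meet (the ligular region). Each of the 4 combinations of genotype and tissue had 3 libraries by the labels, and the deposited tables give 1 combined value per combination, so there is no spread between libraries and the read depth is unknown. The labels used here do not say how Sdw3 and N18 are related by descent, or whether the 3 libraries of a group came from separate plants. RNA was taken from whole tissue, where fewer cells of a type and less RNA per cell cannot be told apart. Marker genes separated the tissues: the ligule gene lg1 was at 15 (Sdw3) and 14.9 (N18) in the ligular region and at 0.183 and 0.125 in internode tissue, while KN-1, a homeobox gene of meristem and young stem, was at 180 and 172 in internode tissue and listed at 0 in the ligular region. The ligule-named homeobox genes lg3 and lg4 went the other way, at 51.5 and 25.8 in the Sdw3 internode and at 0 and 0.19 in the Sdw3 ligular region. The 3 markers of green leaf, all of the C4 photosynthetic pathway, differed in value between the ligular region of Sdw3 and that of N18, with pep1 at 175 against 35.1, ME1 at 73.9 against 16.7 and C4ppdkZm1 at 476 against 240. C4ppdkZm1 also differed in internode tissue, at 24.8 (Sdw3) against 5.62 (N18), while pep1 and ME1 were under 1 there in both genotypes. Unlike lg1, the ligule gene lg2 differed in the ligular region, at 2.95 (Sdw3) against 0.925 (N18). The part of such a difference in tissue makeup in the results below was not tested.

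Maize lines are known for differing from each other in gene content as well as in sequence: genes carried by one inbred line can be missing from another, and stretches between genes are often not alignable. Reads of every line are counted here on gene models of B73, another inbred line, so a gene is seen only where a line's transcript resembles the B73 copy. An FPKM near 0 in such a table does not tell a gene that is missing from a line from one that is present but silent, or from one whose sequence differs. Cases of all these kinds are known between maize lines, and which of them applies to the genes below was not tested.

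By gene identifier, 3 of the 16 (18.8%) could be matched to the RefSeq gene table of a later B73 assembly, against 48.0% of all genes and 72.8% of the 18938 genes at an FPKM of 1 or more in all 4 combinations. The identifier was looked for among the symbols, locus tags, synonyms and Ensembl names of the table, so a gene without a match may still have an entry. The 3 matched entries are LOC100501330 (GRMZM2G045699), LOC100275523 (GRMZM2G175989) and LOC100382678 (GRMZM2G047851), each listed as protein-coding with no function given. None of the 16 could therefore be placed in a functional group such as kinases, disease resistance genes or hormone genes, and no role is given for any of them.

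**Figure D1:**
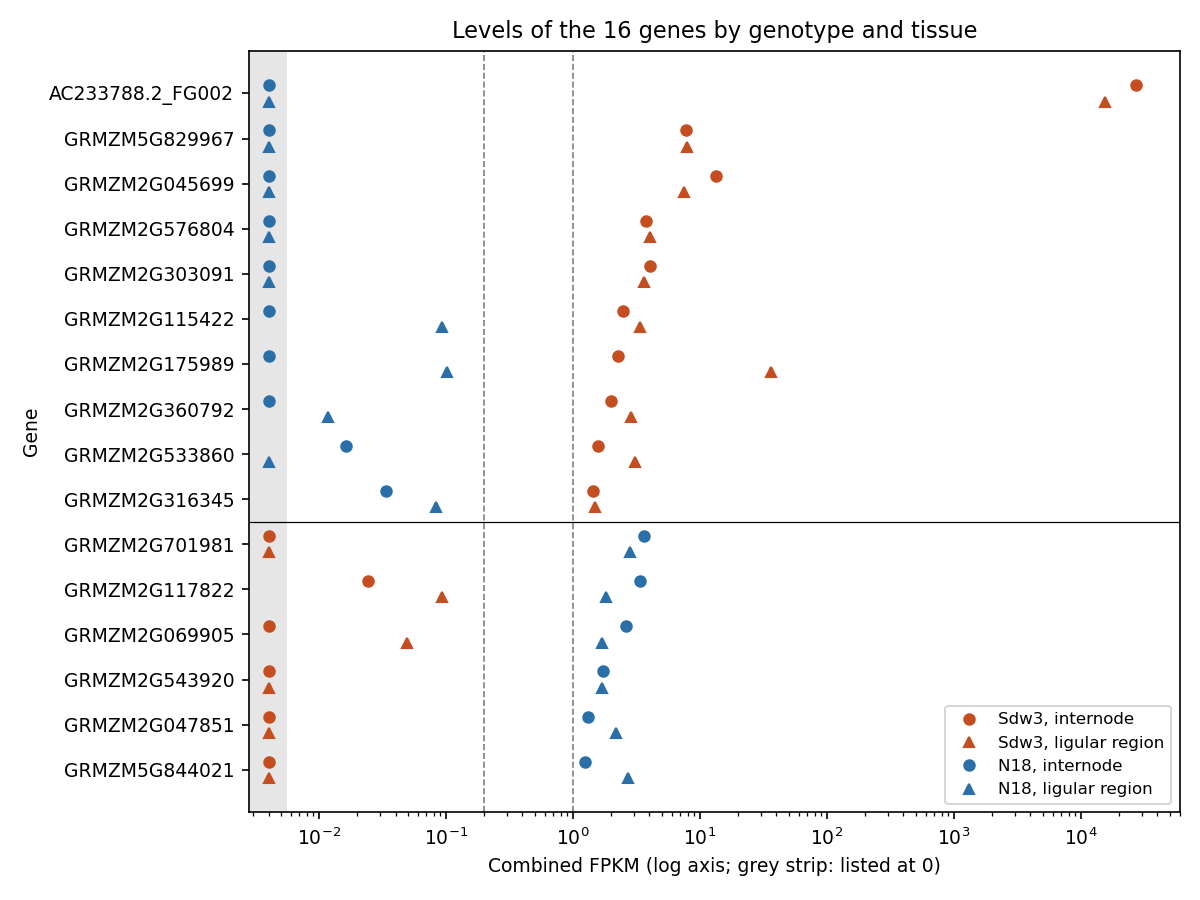
Combined FPKM (log axis) of the 16 genes in the internode (circles) and the ligular region (triangles), orange for Sdw3 and blue for N18; points in the grey strip are listed at 0, and the dashed lines are the limits of 0.2 and 1. The 10 genes above the horizontal line are present in Sdw3 and the 6 below it in N18; AC233788.2_FG002 lies far to the right of the others, and GRMZM2G175989 is the gene whose tissue values are farthest apart.

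Among the 10 genes present in Sdw3, 5 were listed at 0 in N18 in both tissues. GRMZM2G045699 (chromosome 1, 228324146 to 228326276) was at 13.4 in the Sdw3 internode and 7.45 in the Sdw3 ligular region. GRMZM2G303091 (chromosome 4, 236232402 to 236233265) was at 4.03 and 3.61, and GRMZM2G576804 (chromosome 8, 139836376 to 139836953) at 3.76 and 4.03 in the same order. GRMZM5G829967 (chromosome 9, 154575743 to 154581167) was at 7.72 and 7.84. Each of the last 3 had a similar level in both Sdw3 tissues, and GRMZM2G045699 was higher in the internode.

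The fifth gene listed at 0 in N18, AC233788.2_FG002 (chromosome 8, 168969993 to 168970142), stood apart from the rest. It was at 26918 in the Sdw3 internode and 15532 in the Sdw3 ligular region, the highest value of any gene in both columns, and took 3.52% and 1.88% of their sums. The next highest genes were at 6737 and 12612. Its locus spans 150 bases, and none of the 23727 genes that reached an FPKM of 1 in any combination had a shorter one; the authors did not test it. FPKM divides by length, so a level on a model this short is poorly determined; the part of that in its value was not tested. Its nearest neighbour, AC233788.2_FG003, 4.93 kb away, was at 0.764 in Sdw3 and 0 in N18 in internode tissue and at 1.69 and 7.82 in the ligular region, with no call in the authors' deposited table.

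The other 5 genes present in Sdw3 had a trace in N18 in at least 1 tissue. GRMZM2G175989 (chromosome 6, 3991186 to 3992505) was at 2.27 in the Sdw3 internode and 36.3 in the Sdw3 ligular region, and at 0 and 0.103 in N18. It was the most tissue-dependent of the 16, 16-fold higher in the ligular region of Sdw3 than in the internode. GRMZM2G115422 (chromosome 8, 166930905 to 166932864) was at 2.49 and 3.34 in Sdw3 and at 0 and 0.0926 in N18. GRMZM2G360792 (chromosome 3, 142462630 to 142473385) has the longest locus of the 16, 10756 bases, and was at 1.99 and 2.85 in Sdw3 and 0 and 0.0117 in N18.

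The lowest internode levels of the 10 were those of the last pair. GRMZM2G533860 (chromosome 7, 95853104 to 95856784) was at 1.57 in internode tissue and 3.05 in the ligular region of Sdw3, against 0.0164 and 0 in N18. GRMZM2G316345 (chromosome 1, 297875602 to 297876454) was at 1.44 and 1.5 against 0.0335 and 0.0828, 43.0-fold and 18.1-fold higher in Sdw3. It was the single gene of the 10 above 0 in N18 in both tissues, and both folds rest on these N18 levels near 0. In the authors' deposited table it was tested in both tissues and called in neither.

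The 6 genes present in N18 were all low there, between 1.24 and 3.62 in the internode and between 1.68 and 2.83 in the ligular region. Of these, 4 were listed at 0 in Sdw3 in both tissues. GRMZM2G701981 (chromosome 3, 177910124 to 177910612) was at 3.62 in the N18 internode and 2.83 in the N18 ligular region. GRMZM2G543920 (chromosome 5, 9870050 to 9870777) was at 1.71 and 1.68, and GRMZM2G047851 (chromosome 3, 178100264 to 178101383) at 1.32 and 2.19. GRMZM5G844021 (chromosome 3, 105277546 to 105277840), a locus of 295 bases that the authors did not test, was at 1.24 and 2.73, 2.20-fold higher in the ligular region.

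Traces in Sdw3 were left for the other 2. GRMZM2G069905 (chromosome 10, 121477230 to 121481651) was at 2.64 in the N18 internode and 1.70 in the N18 ligular region, against 0 and 0.0492 in Sdw3. GRMZM2G117822 (chromosome 4, 74478988 to 74488082) was at 3.34 and 1.83 against 0.0244 and 0.0922, 137-fold and 19.9-fold higher in N18. Both folds rest on Sdw3 levels near 0. In the authors' deposited table GRMZM2G117822 was tested in both tissues and called in neither. Its locus is shared with another gene, GRMZM2G117755.

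**Figure D2:**
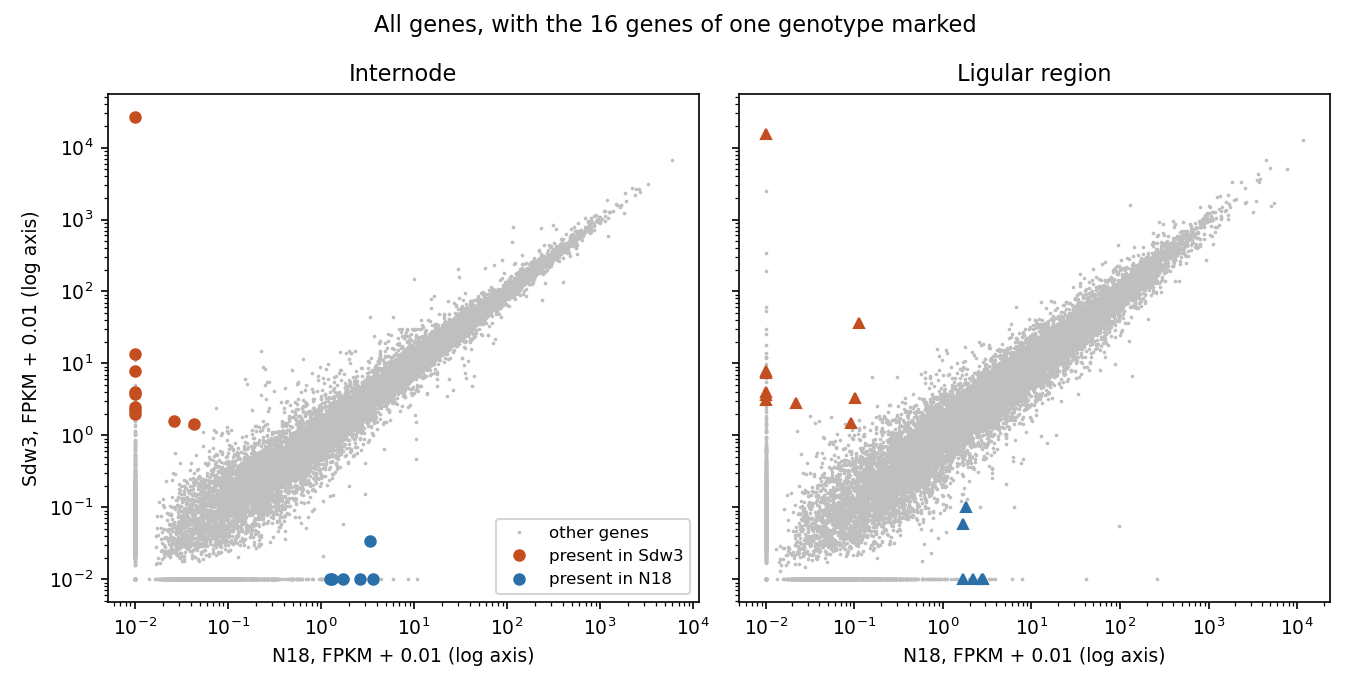
FPKM + 0.01 of every gene in N18 (x axis) and Sdw3 (y axis), both on log axes, in the internode (left) and the ligular region (right); grey points are other genes, orange the 10 genes present in Sdw3 and blue the 6 present in N18. Most genes lie along the diagonal, and the marked genes lie on or near the axes, most of them at levels of a few FPKM; the highest is AC233788.2_FG002, followed by GRMZM2G175989 in the ligular region (36.3) and GRMZM2G045699 in the internode (13.4). Grey points on the axes at higher levels met the limits in that tissue alone.

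Most of the genes in both sets were low. The smaller of a gene's 2 tissue levels was under 5 for 7 of the 10 genes present in Sdw3 and for 6 of the 6 present in N18, with medians of 3.05 and 1.69. Among the 19652 genes at 1 or more in both tissues of Sdw3 that smaller level had a median of 10.01 and was under 5 for 28.7%, and in N18 (19282 genes) the median was 9.97 and 28.7% were under 5. The 3 genes whose smaller level was 5 or more were AC233788.2_FG002, GRMZM5G829967 and GRMZM2G045699, all present in Sdw3. In the genotype where they were present, 14 of the 16 differed less than 2-fold between tissues, and the exceptions were GRMZM2G175989 and GRMZM5G844021. For genes at 1 or more in all 4 combinations, 69.1% (Sdw3) and 63.1% (N18) stayed within 2-fold. The median log2 ratio of the ligular to the internode level was 0.08 for the genes present in Sdw3 and -0.19 for those present in N18, beside -0.18 and -0.19 for those other genes.

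Their loci were short. The median locus length was 1640 bases for the genes present in Sdw3 and 924 for those present in N18, against 2577 for all genes and 3923 for genes at 1 or more in all 4 combinations. Of the 16, 7 were under 1000 bases (43.8%), beside 18.9% of all genes and 6.09% of the genes expressed in all 4 combinations. GRMZM5G829967 and GRMZM2G117822 share a locus with another gene in the files, so their lengths of 5425 and 9095 bases are those of the joint locus. For the 14 with a locus of their own the median was 992.

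**Figure D3:**
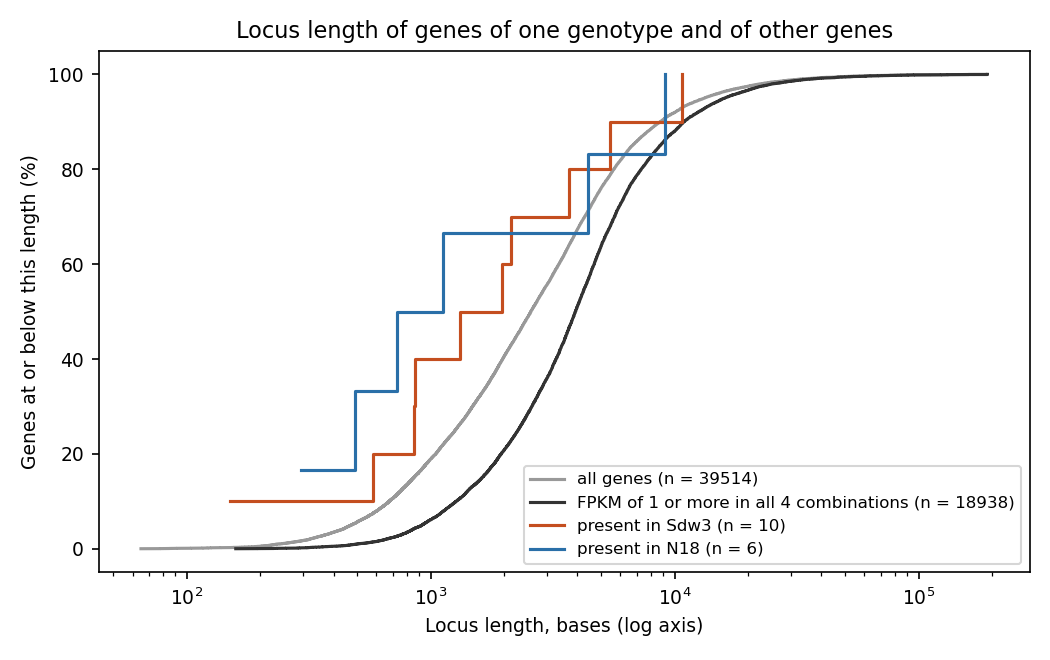
Cumulative percentage of genes (y axis) at or below a locus length (x axis, log scale, in bases) for all genes, genes at an FPKM of 1 or more in all 4 combinations, and the genes present in Sdw3 or in N18. The 2 stepped curves of the chosen genes lie to the left of the other curves over most of the range, with medians of 1640 and 924 bases against 2577 and 3923.

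The same limits were met more often by shorter loci. Of 49 loci under 300 bases that were at 1 or more in both tissues of a genotype, 2 (4.08%) met the limits, against 5 of 1303 (0.384%) from 300 to under 1000 bases and 9 of 18644 (0.0483%) at 1000 bases or more. In a single tissue the gap was wider: among loci under 300 bases at 1 or more in either genotype, 36.2% in internode tissue and 28.7% in the ligular region were under 0.2 in the other genotype. For loci of 1000 bases or more those shares were 0.214% and 0.313%. Counts of fragments are not in the files, so the part of sampling of few fragments in this dependence on length was not tested.

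Taken alone, the internode gave 53 genes present in Sdw3 and 36 in N18, and the ligular region 80 and 48. Of the 53 Sdw3 genes of the internode, 10 met the limits in the ligular region too; 20 fell short there only because Sdw3 was under 1, 20 only because N18 reached 0.2, and 3 for both reasons. Of the 36 N18 genes of the internode 6 met them in the ligular region, and 8, 15 and 7 failed in the same order. The 2 tissues have different libraries of the same genotypes, so a gene at 0 in both rests on 2 combined values.

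Some genes that met the limits in 1 tissue alone had high values there. GRMZM5G852170, with a locus of 153 bases, was at 2527 in the Sdw3 ligular region and listed at 0 in the other 3 combinations. GRMZM5G857708 (254 bases) was at 262 in the N18 ligular region and 0 in that of Sdw3, but at 43.9 (Sdw3) and 87.4 (N18) in the internode. The authors tested neither GRMZM5G852170 nor GRMZM5G857708. In 5 genes the direction turned between the tissues: GRMZM5G850577, a locus of 195 bases, was at 0 in Sdw3 and 8.6 in N18 in the internode, but at 53.8 in Sdw3 and 0 in N18 in the ligular region. The other 4 were AC208702.3_FG007, AC204387.3_FG002, GRMZM2G032149 and AC203048.3_FG001. None of the 5 was called in the authors' deposited table, where 2 were tested in at least 1 tissue; at an unadjusted p under 0.05 there was 1, AC203048.3_FG001 (p = 0.0239 and 0.0229). These genes are named because of their values and are not among the 16.

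In the authors' deposited table a gene is called where its adjusted p is under 0.05. In the internode 6 of the 9 tested genes present in Sdw3 were called higher in Sdw3, where 6.54% of all tested genes were, and 4 of the 5 tested genes present in N18 were called lower, where 4.76% were. In the ligular region 6 of 9 and 3 of 5 were called, beside 13.1% and 13.7%. The limits used these same contrasts, so the counts say nothing more about the genes. By gene, 8 of the 16 were called in both tissues, 3 in 1 tissue and 5 in neither. Those 5 include AC233788.2_FG002 and GRMZM5G844021, which were not tested.

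Which of the 16 were called followed the exact 0 in the deposited values. Over both tissues there were 19 tested cases with the other genotype listed at 0, of which 17 were called, all 17 at the smallest p in the authors' deposited table (5e-05). There were 9 tested cases with a trace above 0, of which 2 were called. GRMZM2G360792 shows both sides: with N18 at 0 in the internode its adjusted p was 0.00109, and with N18 at 0.0117 in the ligular region, where Sdw3 was 243-fold higher, it was 0.29 in the authors' deposited table. GRMZM2G069905 gave 0.00109 in the internode, with Sdw3 at 0, and 0.381 in the ligular region, with N18 34.5-fold above a trace in Sdw3, in the authors' deposited table. The 2 called cases with a trace were GRMZM2G175989 and GRMZM2G115422 in the ligular region, where the authors' deposited table gives adjusted p values of 0.013 and 0.0418.

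The exceptions on the other side were both tissues of GRMZM5G829967. It was at 7.72 and 7.84 in Sdw3 and 0 in N18, and its adjusted p was 0.367 and 0.369 in the authors' deposited table. Its locus is shared with GRMZM2G467007, at 11.9 (Sdw3) and 11.7 (N18) in internode tissue and 73.4 and 111 in the ligular region, so reads may be divided between the genes and its values are uncertain. The same holds for GRMZM2G117822, whose locus is shared with GRMZM2G117755, at 22.9 and 24.9 in internode tissue and 48.9 and 51.6 in the ligular region. Whether the authors counted by strand is not given in the sources used here. The part of a shared locus in these values and calls was not tested. Over all genes at 1 or more in a genotype and under 0.2 in the other, 45 of 61 tested cases with an exact 0 were called (73.8%) and 24 of 84 with a trace (28.6%).

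By position the 16 were spread over 9 of the 10 chromosomes, all but chromosome 2. Chromosome 3 held 4 (25%) and chromosome 8 held 3 (18.8%), where 10.8% and 8.96% of the genes at 1 or more in any combination lie. The 3 on chromosome 8 were all present in Sdw3, and 3 of the 4 on chromosome 3 were present in N18. With so few genes these are counts only. Over the 2059 Mb that the gene loci of the 10 chromosomes span, 16 genes come to 1 per 129 Mb.

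Clusters were counted as genes within 1 Mb of each other. At that distance 18845 of the 18860 genes at 1 or more in all 4 combinations on these chromosomes have another such gene. Those genes lie far more densely than the 16, so that share does not show how many pairs 16 genes would form. Of the 16, 1 pair lay that close, GRMZM2G701981 and GRMZM2G047851 on chromosome 3, both present in N18, 190 kb apart. The next closest were GRMZM2G115422 and AC233788.2_FG002 on chromosome 8, both present in Sdw3 and 2.04 Mb apart; every other distance was above 27 Mb. The pair on chromosome 3 was not an unbroken block. Of the 5 genes between its members, 3 were under 0.2 in all 4 combinations. The other 2 were expressed in both genotypes: GRMZM2G128918 at 17.7 (Sdw3) and 18.8 (N18) in internode tissue and 28.8 and 27.1 in the ligular region, and GRMZM2G127949 at 89.8 and 65.9 and at 224 and 142, called higher in Sdw3 in both tissues in the authors' deposited table.

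RefSeq lists GRMZM2G047851 and its neighbour GRMZM2G007659, 8.91 kb further on, as one gene, LOC100382678. GRMZM2G007659 was at 2.57 (Sdw3) and 1.71 (N18) in internode tissue and 1.98 and 2.22 in the ligular region, and it was not called in the authors' deposited table. So 1 of the 2 models of this RefSeq gene was listed at 0 in Sdw3 in both tissues while the other was expressed in both genotypes. The next genes along, GRMZM2G003682 and GRMZM2G177518, were lower in Sdw3 in both tissues. GRMZM2G003682 was at 1.28 against 3.45 in internode tissue and 59.1 against 158 in the ligular region. In the stretch of chromosome 3 from 170 to 180 Mb, 21.4% of 140 tested genes were called in internode tissue and 36.5% of 156 in the ligular region, beside 11.3% and 26.8% of all tested genes. The other stretch of 10 Mb with more than 1 of the 16, chromosome 8 from 160 to 170 Mb, had 10.8% of 223 and 26.5% of 249 called. GRMZM2G701981 and GRMZM2G047851 are themselves among the called genes of the chromosome 3 stretch in both tissues. In stretches with 1 of the 16, the share called ran from 5% to 17.8% in internode tissue. In the ligular region it ran from 19.0% to 30.8%.

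**Figure D4:**
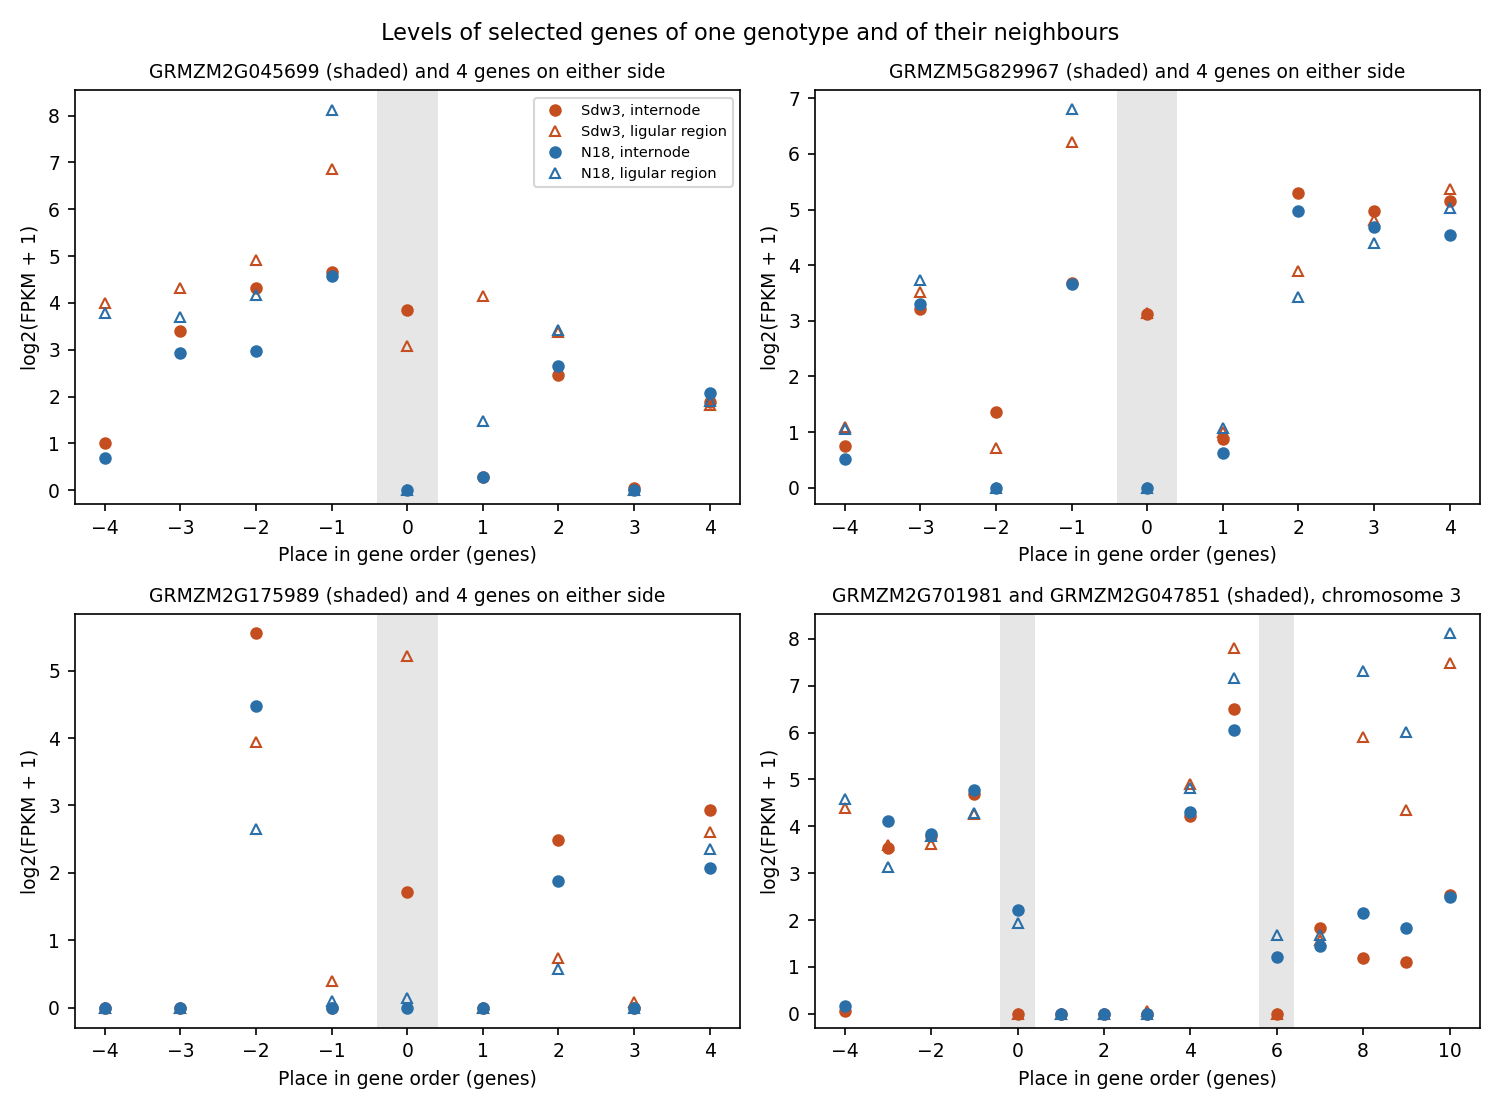
log2(FPKM + 1) by place in gene order (x axis, in genes) for GRMZM2G045699, GRMZM5G829967 and GRMZM2G175989 with 4 genes on either side, and for the pair on chromosome 3 with the 5 genes between and 4 on either side; shading marks the chosen genes, orange Sdw3, blue N18, filled circles the internode and open triangles the ligular region. At the shaded places one genotype lies at or near 0, while most expressed neighbours have points of both genotypes above 0. At place -2 of GRMZM5G829967 lies GRMZM2G153152, at 0 in N18 too.

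A second close pair appears just outside the limits. GRMZM2G153152 lies 3.74 kb from GRMZM5G829967 on chromosome 9 and was also listed at 0 in N18 in both tissues. In Sdw3 it was at 1.56 in internode tissue and 0.633 in the ligular region, so it missed the minimum of 1 in the latter. In the authors' deposited table it was called in the internode (adjusted p = 0.00109) and was not tested in the ligular region.

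The surroundings were described by the nearest gene on each side that was at 1 or more in all 4 combinations, which is by this choice a gene expressed in both genotypes. Of these 32 genes, 2 share the locus of the chosen gene, and the other 30 lay at a median distance of 68.1 kb. Of these 32 genes 5 (15.6%) were called in internode tissue and 8 (25%) in the ligular region, and for genes at 1 or more in all 4 combinations those shares were 10.5% and 23.5%. Their median absolute log2 ratio between genotypes was 0.12 in internode tissue and 0.22 in the ligular region, beside 0.15 and 0.19. In each tissue 2 of the 32 (6.25%) differed 2-fold or more between genotypes. For genes at 1 or more in all 4 combinations that share was 1.53% in internode tissue and 3.90% in the ligular region. Of the 125 other genes within 4 places of the 16, 64 were at 1 or more in all 4 combinations and 26 were listed at 0 in all 4 (20.8%, beside 24.8% of all genes).

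Some neighbours did differ, in the direction of the chosen gene or against it. GRMZM2G175995, 13.8 kb from GRMZM2G175989, was at 46.3 (Sdw3) and 21.3 (N18) in internode tissue and 14.3 and 5.29 in the ligular region, 2.17-fold and 2.71-fold higher in Sdw3 and called in both. GRMZM2G095126, the next gene after GRMZM2G045699 at 52.2 kb, was at 0.221 and 0.209 in the internode but at 16.8 (Sdw3) and 1.78 (N18) in the ligular region, 9.47-fold higher in Sdw3. On the other side of GRMZM2G045699, GRMZM2G346455, 5.84 kb away, was 2.42-fold lower in the Sdw3 ligular region, at 115 against 279, and at 24.3 against 22.8 in the internode. GRMZM2G095492, 64.9 kb away, was 2.77-fold and 1.73-fold higher in Sdw3. The differences of these 4 genes named as higher or lower were called, with the smallest adjusted p of their tissue in the authors' deposited table (0.00109 in the internode, 0.000398 in the ligular region). Other called neighbours went against the chosen gene. GRMZM5G842645, next to GRMZM2G576804, was 3.22-fold lower in the Sdw3 ligular region, and GRMZM2G016290, near GRMZM2G316345, 2.84-fold lower. GRMZM2G069830, next to GRMZM2G069905 (present in N18), was 2.04-fold higher in the Sdw3 internode. GRMZM2G092465, near GRMZM2G175989, went with it, 2.05-fold higher in the Sdw3 internode.

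Close to the limits, the lowest accepted levels were 1.24 (GRMZM5G844021), 1.32 (GRMZM2G047851), 1.44 (GRMZM2G316345) and 1.57 (GRMZM2G533860). Just under the minimum lay AC233933.1_FG001 (0.863), GRMZM2G351023 (0.815), GRMZM5G888300 (0.767) and GRMZM2G093404 (0.761), each with the other genotype under 0.2. The highest accepted traces were 0.103 (GRMZM2G175989), 0.0926 (GRMZM2G115422), 0.0922 (GRMZM2G117822) and 0.0828 (GRMZM2G316345), well below the limit of 0.2. Just over it lay GRMZM2G008464 (0.202), GRMZM5G842855 (0.244), GRMZM2G054938 (0.247) and GRMZM2G074759 (0.293).

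The same limits applied between tissues took in many more genes. There were 134 genes at 1 or more in the internode of both genotypes and under 0.2 in both ligular regions, and 761 in the opposite direction, against the 16 between genotypes.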

How the data were processed

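RNA of 12 maize samples was sequenced; the submitters' processing notes name Cufflinks, TopHat2 2.1.0, bcl2fastq, CASAVA 1.8 and the build B73 RefGen_v3. The authors deposited 1 FPKM per gene, genotype and tissue, combined over 3 libraries, with the p-value and adjusted p (q-value) of each gene, per the file headers; that the unit is FPKM is taken from Cufflinks being named and from the column layout. The sources used here do not give the annotation release, strand or normalization between libraries.

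Both tables were joined on the gene identifier, and the limits of 1 and 0.2 were applied with no filter or scaling. Starts in the files count from 0: in 707 short gene models (under 600 bases, identifiers with _FG) end minus start was a multiple of 3 in 89.7%, so 1 was added to each start. Positions are on B73 RefGen_v3. RefSeq entries come from the table of assembly Zm-B73-REFERENCE-NAM-5.0, used for names alone. The naming rule took up to 12 genes per direction with the highest smaller tissue level, and the 4 nearest each side of a limit, which names all 16; neighbours and genes of 1 tissue were named after their values were seen. The members and lists were chosen with earlier results of these data known. The steps were tested on simulated data. Planned tests on libraries could not be run, since the files hold combined values. Alternatives tried were other limits, single tissues, scalings, locus filters, thresholds and gaps. Tables were made with pandas 2.3.3 in Python 3.11.15, and figures with matplotlib 3.10.9.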

Additional observations from a re-analysis of the deposited data

How the results depend on the processing

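Of 114 recomputed values, 74 stayed within 1.5 times the reported one (for the median tissue ratio, within 0.58 on the log2 scale) and 40 moved. The reported values are 10 genes present in Sdw3, 6 in N18, 10 called in the internode, 9 in the ligular region, 2 in close pairs, a median length of 1220 bases, 2 windows of 10 Mb with more than 1 gene, and a median log2 tissue ratio of 0.04. With the low limit at 0.5 there were 17 genes in Sdw3 and 15 called in the ligular region; with an exact 0, 5 in Sdw3, 6 called in the internode, 728 bases and 1 window. With a minimum of 0.5 there were 22 in Sdw3, 16 called in the internode, 4 in clusters and 4 windows. With a minimum of 2 there were 1 in N18, 6 called in the internode, 0 in clusters and 1 window. With 5 there were 3 in Sdw3, 0 in N18, 1 called in either tissue, 0 in clusters, 2131 bases, 0 windows and a ratio of -0.79. In the internode alone there were 53 in Sdw3, 36 in N18, 28 and 23 called, 11 in clusters and 13 windows. In the ligular region alone there were 80, 48, 16 and 41 called, 22 in clusters, 28 windows and a ratio of 4.19. In that setting no minimum applied in the internode, where a 0 was set to a very small value. The ratio of 4.19 therefore partly reflects the choice of genes. Without loci under 300 bases, or with genes tested in both tables only, 1 window was left. Gaps of 100 kb gave 0 in clusters, 5 Mb gave 4, and 5 genes on either side gave 0. The cause of these moves was not tested beyond the limits themselves. Scaling the columns to the same sum or upper quartile moved none of the 8 results.

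No paired analysis was possible because the files hold 1 combined value per genotype and tissue, and leaving out each replicate was not run for the same reason. Depth is unknown, so no limit of detection can be set on a listed 0.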
